A study of Homo sapiens with 2 samples.

Results

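The 8 genes HMGCS1, IDI1, FDPS, FDFT1, SQLE, LSS, SC5D and DHCR7 encode enzymes of cholesterol synthesis, and their RNA was examined in 2 long-read in situ STAMP libraries of HEK293T cells, a human embryonic kidney line that the labels also name HEK293XT. The genes were chosen by name. A long-read gene locus was given to the GENCODE gene on the same strand with the largest exonic overlap, and every C-to-U position listed for the loci of these 8 genes was kept. Each gene had 1 locus, and 7 of the 8 loci, of 12167 loci with a listed position, held edit sites. They had 168 of the 121930 RBFOX2 sites and 120 of the 103684 enzyme-only sites.

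Both libraries came from methanol-fixed cells treated with APOBEC1, a cytidine deaminase, fused to a nanobody against rabbit IgG. In the RBFOX2 library the cells had first been bound by a rabbit antibody to RBFOX2, an RNA-binding protein that regulates splicing and recognises UGCAUG, whereas the enzyme-only library had no such antibody. The labels give 1 library to each group, so every difference below lies between 2 libraries and has no replicate check, no p-value and no SD. Each interval is the exact 95% Clopper-Pearson interval of a count or share. It holds counting error alone, as no molecular identifiers are given and several sites may lie on 1 read.

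Cholesterol is built from acetyl-CoA by way of mevalonate, isoprenoid units, squalene and lanosterol, and the genes of this route are known to be switched on together by the SREBP transcription factors when cells run short of sterol. HMGCS1 makes HMG-CoA at the entry to the route. IDI1 interconverts the isoprenoid units, FDPS joins them to farnesyl diphosphate, FDFT1 joins farnesyl units to squalene, SQLE adds the oxygen to squalene and LSS closes the rings to lanosterol. SC5D and DHCR7 act near the end of the route and set the double bonds of the sterol ring.

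Depth was close, at 2431345 RBFOX2 reads and 2233600 enzyme-only reads over the listed genes and a median of 96 and 87 per gene. A site was listed when converted reads made up more than 0.2% of the reads of the gene, so 1 converted read was enough below 500 reads and not above. The 7 enzymes with a listed position held 3211 and 3066 reads. Of the markers of the kidney origin, 3 of 5 renal developmental factors were listed, EYA1, WT1 and PAX2, at 3 to 12 reads, and 1 of 8 mature kidney markers was listed, LRP2 at 8 and 12 reads. Reads are known only for genes with a listed site, so the level of the other markers is unknown.

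Some of the best supported sites show what was measured, and 4 are printed here with the edited C in capitals (hg38, 5′ to 3′ on the RNA strand, with T for U). All are on the minus strand except the FDPS site.
HMGCS1 site in exon 5, chr5:43297129-43297157: ggacacatatgcaaCatgcctatgatttt
IDI1 site after the stop codon, chr10:1041081-1041109: tatcattaatttatCattaaatttagttc
IDI1 site in both libraries, chr10:1043323-1043351: aaaataagcttctgCtacagcaaagatca
FDPS site in both libraries, chr1:155318911-155318939: gctgcagccatgtaCatggtgagtgagcc
The first 2 were listed in the RBFOX2 library only, with 2 of 108 reads and 5 of 636 reads converted. The other 2 were listed in both libraries.

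Sites listed in both libraries were set aside, which left 152 RBFOX2 and 104 enzyme-only sites, all in exons of the isoform models. Most rested on 1 read: 107 of the 152 and 75 of the 104 had 1 converted read, 32 and 21 had 2, and 13 and 8 had 3 or more, with at most 5 and 6. The share with at least 2 converted reads was 29.6% (22.5 to 37.5%) for RBFOX2 and 27.9% (19.5 to 37.5%) for enzyme-only sites, and the intervals overlap. Over all genes the shares were 14.3% and 9.45%. IDI1, SQLE and FDPS had over 500 reads, so all of their sites have at least 2 converted reads by construction.

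**Figure D1:**
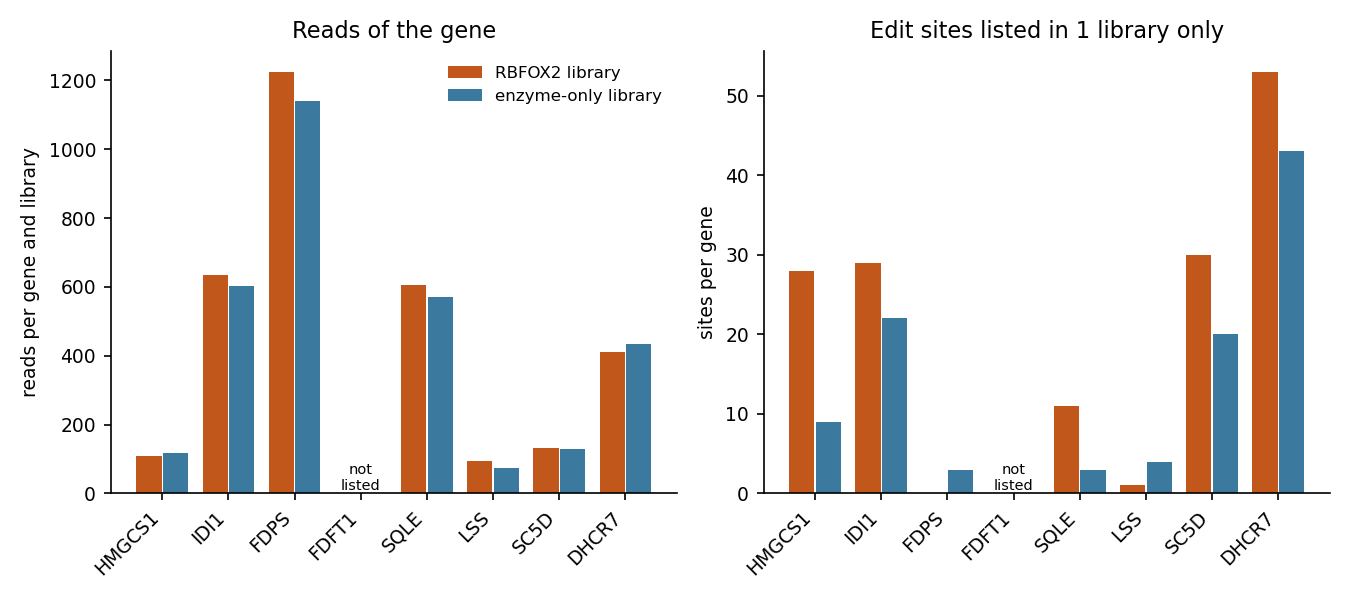
Bars give the reads of each gene (left) and the number of edit sites listed in 1 library only (right) for the 8 enzymes, in the order of the pathway, in the RBFOX2 and the enzyme-only library. The ratio of reads between the libraries was between 0.923 and 1.25 in the 7 listed genes, while HMGCS1 had 28 sites against 9 and SQLE 11 against 3; FDFT1 had no listed position in either library.

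HMGCS1 had more sites in the RBFOX2 library, SQLE leaned the same way on few sites, IDI1, SC5D and DHCR7 differed little, and the few sites of FDPS and LSS lay mostly in the enzyme-only library. The number of sites of a gene was divided between the libraries as a log2 ratio (RBFOX2 over enzyme-only, scaled by the sites of each library, pseudocount 0.5), and a gene with at least 20 sites was called when the ratio passed 2-fold. Of all 3604 genes with at least 20 sites, 16.8% were called higher in the RBFOX2 library, 14.6% higher in the enzyme-only library and 31.4% either way. Of the 4 enzymes with at least 20 sites, 1 (HMGCS1) was called higher in the RBFOX2 library and 0 lower, a share near that background. Their median log2 ratio was 0.22, beside 0.08 over all genes.

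HMGCS1 (chromosome 5, minus strand, 43289394 to 43313447) had 108 RBFOX2 and 117 enzyme-only reads, with 28 and 9 sites. Its log2 ratio was 1.32 (0.25 to 2.64), a fold of 2.50 (1.19 to 6.24), at percentile 88.7 of all genes with at least 20 sites. Conversions summed over these sites came to 269 per 1000 reads of the gene against 76.9. A read with several edits counts once per site, so this is not a share of edited reads. The excess lay in the coding sequence, with 14 sites against 3, and in the 3′UTR, with 14 against 5. Only 1 of the 37 sites, the exon 5 site printed above, had more than 1 converted read, so the call cannot be made from sites with at least 2.

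IDI1 (chromosome 10, minus strand, 1039910 to 1056715) had 636 and 602 reads and 29 and 22 sites, a log2 ratio of 0.13 (−0.71 to 1.00). SC5D (chromosome 11, plus strand, 121292689 to 121308631) had 132 and 130 reads and 30 and 20 sites, a log2 ratio of 0.31 (−0.54 to 1.22). DHCR7 (chromosome 11, minus strand, 71434413 to 71448387) had 410 and 433 reads and the most sites of the 8 genes, 53 and 43, a log2 ratio of 0.04 (−0.57 to 0.65). In none of the 3 did the interval exclude an equal number of sites per library. When sites of 1 library within 50 nt of each other were counted once and the library totals with them, the counts were 10 and 15 in IDI1, 12 and 12 in SC5D and 25 and 23 in DHCR7. The log2 ratios were then −0.69 in IDI1, −0.13 in SC5D and −0.01 in DHCR7, all within 2-fold, while HMGCS1 was at 1.25 with 19 and 7.

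SQLE (chromosome 8, plus strand, 124998505 to 125022281) had 606 and 570 reads and 11 sites against 3. Its log2 ratio of 1.45 (−0.31 to 4.09) rests on 14 sites, fewer than the 20 asked for, and its interval includes equal numbers. With a minimum of 10 sites, 2 of 5 enzymes (HMGCS1 and SQLE) were beyond 2-fold, both higher in the RBFOX2 library, beside 19.4% higher, 17.2% lower and 36.6% either way of 5594 genes. Its strongest site, Y265Y in exon 4, was converted in 4 of 606 reads of the RBFOX2 library, and each of its 3 enzyme-only sites in 2 of 570.

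FDPS (chromosome 1, plus strand, 155308714 to 155320666) was the deepest of the genes, with 1225 and 1139 reads, and had 0 RBFOX2 sites against 3 enzyme-only sites. At that depth a site needed 3 converted reads to be listed, and no fold is given because 3 sites are the limit that a count of 0 allows. LSS (chromosome 21, minus strand, 46189129 to 46228764) had 94 and 75 reads and 1 site against 4, a log2 ratio of −1.85 (−7.89 to 1.07), each on 1 read. FDFT1 (chromosome 8, plus strand, 11830263 to 11839297) had 3 isoform models that begin at nucleotide 814 of the reference transcript and no listed position, so its depth is unknown and no limit on its editing can be given.

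**Figure D2:**
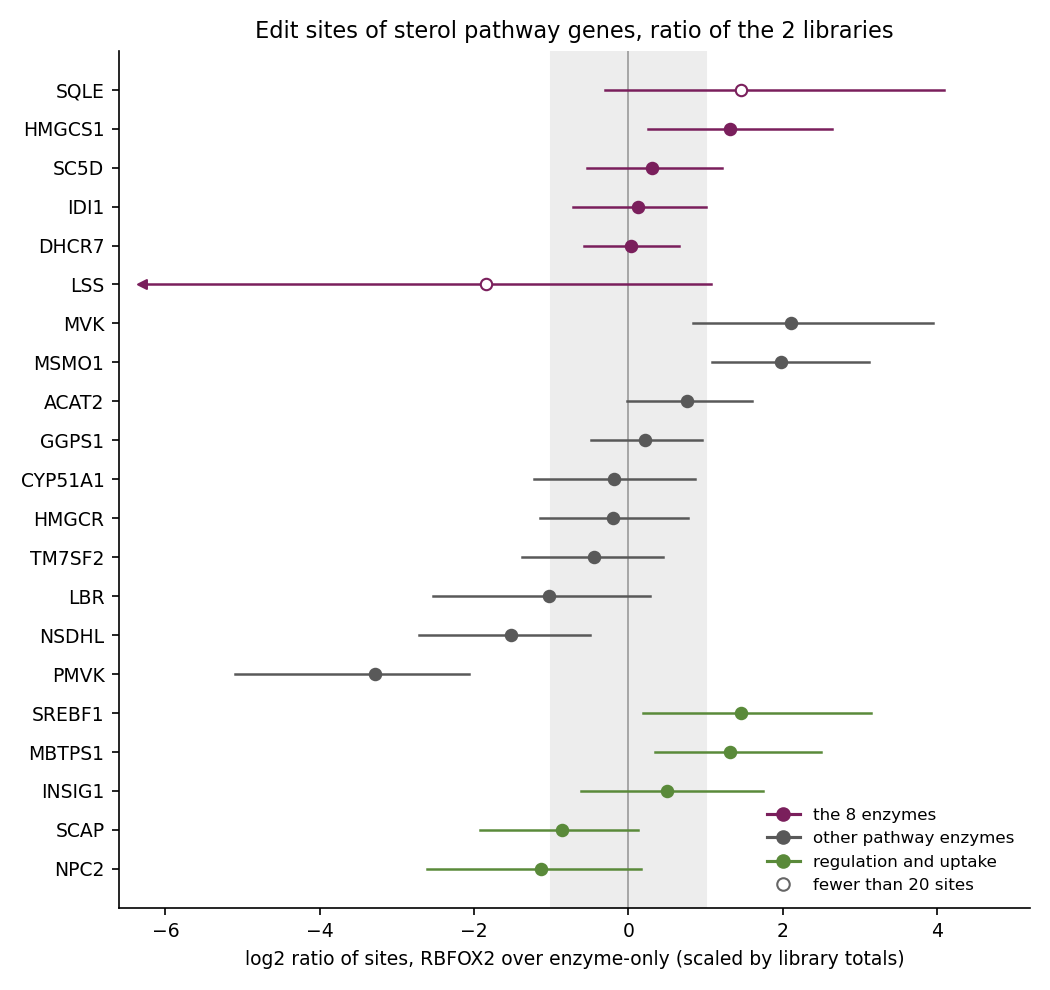
Points are log2 ratios of edit sites, RBFOX2 over enzyme-only, and bars their exact 95% intervals, for the enzymes with sites in both libraries and for the other genes of the route and of its regulation with at least 20 sites; the grey band marks ratios within 2-fold, and the arrow on LSS marks an interval that runs off the axis. HMGCS1 is the only 1 of the 4 enzymes with at least 20 sites outside the band, while other genes of the route lie on both sides, from NSDHL at −1.52 to MVK at 2.11; the lower value of PMVK, −3.28, rests on unequal read minima.

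Other enzymes of the route lay on both sides. Of 13 other enzymes of sterol synthesis all were listed and 10 had at least 20 sites, of which 2 were called higher with RBFOX2 and 3 with the enzyme alone (median log2 ratio −0.19), beside 16.8% and 14.6% of all genes. MVK, mevalonate kinase, had 28 sites against 5 and a log2 ratio of 2.11 (0.83 to 3.95), and MSMO1, a sterol demethylase, 54 against 11 and 1.98 (1.08 to 3.12). NSDHL, a sterol dehydrogenase, had 11 against 27 and −1.52 (−2.72 to −0.50). LBR, a sterol reductase and lamin receptor, was at −1.03 (−2.53 to 0.28), and that call was lost when the ratios were scaled by gene reads or not scaled. PMVK, phosphomevalonate kinase, had 5 against 44 sites and −3.28, but its RBFOX2 sites needed 2 converted reads to be listed and its enzyme-only sites 1. At a common minimum it had 5 against 8 sites and −0.97, and too few to be called. Neighbouring enzymes of 1 route thus lay on opposite sides.

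Of 13 genes of sterol regulation and uptake, 12 were listed and 5 had at least 20 sites. Of these 5, 2 were called higher with RBFOX2 and 1 lower, beside 16.8% and 14.6% of all genes. SREBF1, which encodes an SREBP, had 21 sites against 6 and a log2 ratio of 1.46 (0.19 to 3.14), and MBTPS1, the protease that first cuts the SREBPs, 34 against 11 and 1.32 (0.35 to 2.49). NPC2, a cholesterol carrier of the lysosome, was lower at −1.13 (−2.62 to 0.16), a call also lost when scaled by gene reads or not scaled. With sites within 50 nt counted once, MSMO1 was at 0.38 and MBTPS1 at 0.84. MVK was at 1.06 but on 17 sites and SREBF1 at 0.11 on 6 against 5, both fewer than 20. NSDHL was then at −0.86 on 7 against 12 sites and LBR at −0.95 on 6 against 11, also fewer than 20, and PMVK had too few sites. HMGCS1 was the only gene among the 8 enzymes and these lists still called higher in the RBFOX2 library. The genes left with fewer than 20 sites could not be called either way, so their lost calls show no change of ratio by themselves. Over all genes, 103 of 2133 were then called higher and 118 lower.

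Along HMGCS1 the RBFOX2 sites were spread over most of the coding exons. Exons 4 to 9, with 167 cytosines, held 12 RBFOX2 sites and 0 enzyme-only sites, and the rest of the gene held 16 and 9. All of the 12 but the exon 5 site printed above had 1 converted read, so they could lie on as few as 2 reads. The exon 5 site printed above changes H200Y, from histidine to tyrosine, at residue 200 of the 520 of the reference protein. In exon 11, which holds the end of the coding sequence and the 3′UTR, there were 14 and 7 sites. The exons compared here, and those of SC5D and DHCR7 below, were chosen after the values were seen.

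In IDI1 the RBFOX2 sites gathered just after the stop codon. The first 200 nt of the 3′UTR, with 27 cytosines in modelled exons, held 11 RBFOX2 sites and 2 enzyme-only sites, and the remainder, with 159 cytosines, held 8 and 11. The strongest RBFOX2 site not listed in the other library lay there, 92 nt after the stop codon, with 5 of 636 reads (0.786%) converted. The strongest enzyme-only site lay further on, 650 nt after the stop codon, with 6 of 602 reads (0.997%), in the window printed here with the edited C in capitals (hg38, minus strand).
IDI1 enzyme-only site, chr10:1040523-1040551: ttaggttgaatcttCttgtaaatagtatt

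The same first 200 nt of the 3′UTR held 7 sites against 2 in SC5D, 5 against 1 in HMGCS1 and 3 against 2 in DHCR7. Beyond it the numbers were 8 and 9 in SC5D, 9 and 4 in HMGCS1 and 15 and 18 in DHCR7. The RBFOX2 library thus had more sites than the enzyme-only library just after the stop codon in these 4 genes, on small numbers, and the 200 nt were set after the values were seen. The counts are not scaled by library sites, and no share over all genes is given for this stretch. Enzyme-only sites of SC5D also lay just past its edge, 201 and 207 nt after the stop codon. SQLE had 1 site of each library in that stretch.

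SC5D and DHCR7 differed in the placement of sites more than in their number. In SC5D, exon 2 held 1 RBFOX2 site against 7 enzyme-only sites, and exons 3 and 4 held 7 against 0. Each of these 15 sites had 1 converted read, so the 7 enzyme-only sites could lie on as few as 1 read, and so could the 7 RBFOX2 sites. In DHCR7, exons 3 to 5 held 11 against 2, and the large exon 9, which holds the 3′UTR and 451 cytosines, 28 against 30. The last exon of DHCR7 thus had similar numbers of sites while its first coding exons did not.

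**Figure D3:**
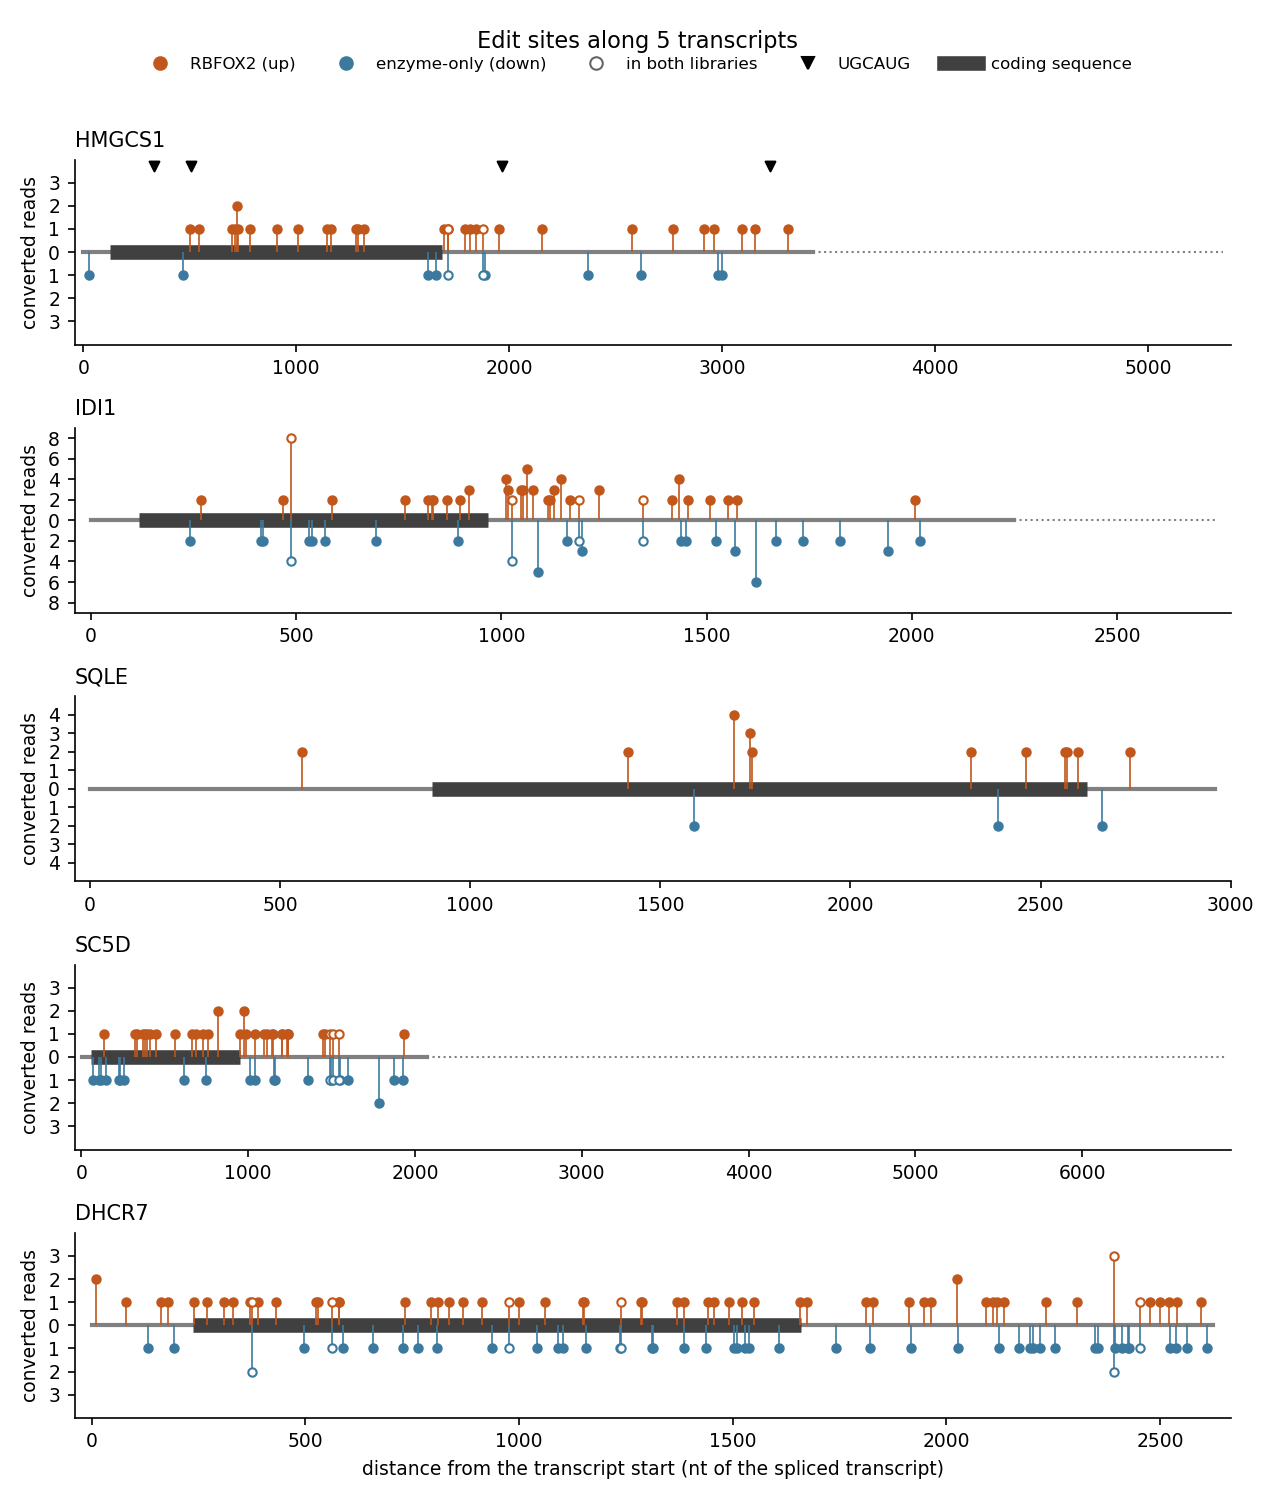
Stems give converted reads at each edit site along the spliced reference transcript of 5 enzymes (x axis, nucleotides from the transcript start), upward for the RBFOX2 library and downward for the enzyme-only library; open circles are sites in both libraries, thick bars the coding sequence, dotted lines the end of the transcript that the isoform models do not reach, and triangles UGCAUG in the transcript. RBFOX2 stems fill the middle of the HMGCS1 coding sequence, where the enzyme-only library has none, and crowd just after the stop codon of IDI1.

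The 3′UTR of these enzymes held 44.7% of their RBFOX2 sites (36.7 to 53.0%) and 51.0% of their enzyme-only sites (41.0 to 60.9%), against 27.5% and 26.9% of the exonic cytosines of the same genes weighted by their sites. The coding sequence held 52.0% and 45.2%, against 44.1% and 43.7% of cytosines. The 5′UTR held 3.29% and 2.88%, below its 11.1% and 9.86% of cytosines. The remaining cytosines of the models lay outside these regions, for example in noncoding exons, where almost no sites lay. They lower each of these cytosine shares, so the coding shares cannot be read as an excess. In both libraries the sites lay in the 3′UTR more often than the cytosines of the models did. Over all genes the 3′UTR held 40.4% and 34.3% of sites.

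The base before the edited C differed between the libraries more than the region did. APOBEC1 is known to favour an A or a U 5′ of its target. Among the sites of these enzymes, 124 of 152 RBFOX2 sites had A or U there, 81.6% (74.5 to 87.4%), and 65 of 104 enzyme-only sites did, 62.5% (52.5 to 71.8%). The intervals do not overlap, but with at least 2 converted reads per site they did, at 95.6% (84.9 to 99.5%) of 45 sites and 86.2% (68.3 to 96.1%) of 29. That minimum also changes the mix of genes, as IDI1 alone held 29 of the 45 and 22 of the 29. All IDI1 sites passed it, with A or U shares of 96.6% and 86.4%, so it is no like comparison with the full set. Among the exonic cytosines of these enzymes, 48.4% and 46.4% have A or U before them. The gap lay in U, at 39.5% (31.6 to 47.7%) with RBFOX2 and 22.1% (14.6 to 31.3%) with the enzyme alone, while A preceded 42.1% and 40.4%. C came before 8.55% and 21.2%. Over all genes the shares with A or U were 71.7% and 63.9%, a gap of the same direction.

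By gene the RBFOX2 share was higher in each of the 4 enzymes with at least 20 sites. It was 89.3% (71.8 to 97.7%) against 55.6% (21.2 to 86.3%) in HMGCS1, 96.6% (82.2 to 99.9%) against 86.4% (65.1 to 97.1%) in IDI1, 93.3% (77.9 to 99.2%) against 65.0% (40.8 to 84.6%) in SC5D and 62.3% (47.9 to 75.2%) against 48.8% (33.3 to 64.5%) in DHCR7. Within each gene the intervals of the libraries overlap. DHCR7 had the lowest share in both libraries and also the fewest A or U before its cytosines of the 4, 40.5%. IDI1 had 46.6% and yet the highest share, and a site of IDI1 needed 2 converted reads where 1 was enough in the other 3.

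**Figure D4:**
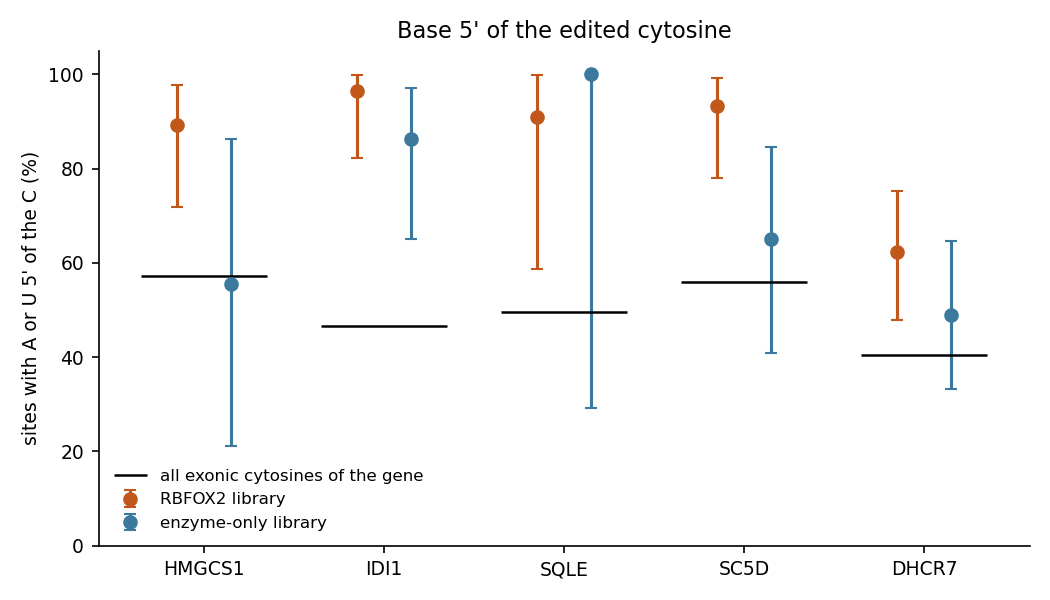
Points are the percent of edit sites with A or U 5′ of the edited C in each library, with exact 95% intervals, and black lines the same percent over all exonic cytosines of the gene, for the 5 enzymes with at least 10 sites. The RBFOX2 point is above the black line in every gene and above the enzyme-only point in all but SQLE, which had 3 enzyme-only sites.

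UGCAUG, searched on the RNA strand of the gene, was rare in these enzymes. The exons of their isoform models held it 4 times in HMGCS1, 2 times in LSS, 1 time each in IDI1 and FDPS, and not in SQLE, SC5D, DHCR7 or the short FDFT1 models. Of the sites, 3 of the 152 from the RBFOX2 library (1.97%, 0.409 to 5.66%) and 1 of the 104 from the other (0.962%, 0.0243 to 5.24%) lay within 50 nt of UGCAUG along the genome. The exonic cytosines of the same genes gave 2.38% and 1.64%, those of all listed loci 2.48%. Within 50 nt the sites of these enzymes were thus near the motif no more often than their cytosines. The paper estimates that edits reach at most 200 nt from the binding site, and no share of cytosines is given here for that distance. Over all genes, 3.98% and 2.33% of sites lay within 50 nt. Within 200 nt lay 13 RBFOX2 sites (8.55%, 4.63 to 14.2%) and 3 enzyme-only sites (2.88%, 0.599 to 8.20%), and the intervals overlap. Most of the 13 were in HMGCS1, and those in SQLE lay near a UGCAUG outside its modelled exons.

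The 4 sites near the motif were all in HMGCS1, 3 of its 28 RBFOX2 sites and 1 of its 9 enzyme-only sites, beside 9.98% of its exonic cytosines, and each had 1 converted read. Both stretches that hold a motif and an RBFOX2 site are printed with the edited C and the motif in capitals (hg38, minus strand).
HMGCS1 exon 3, chr5:43298568-43298597: cgacaCaactaaTGCATGctatggaggcac
HMGCS1 3′UTR, chr5:43290844-43290872: acctCtttggccatttgtaTGCATGatgt
The exon 3 site changes T125I and lies 7 nt from the motif, and the 3′UTR site lies 15 nt from it. On the exon 3 motif there were also an RBFOX2 site at A139V, 30 nt away, and an enzyme-only site at S115F, 37 nt away. The other 2 UGCAUG of HMGCS1, 1 in the coding sequence and 1 in the 3′UTR, had no site within 50 nt.

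In the coding sequence, the 79 RBFOX2 sites comprised 3 that make a stop codon (3.80%, 0.790 to 10.7%), 38 that change an amino acid (48.1%) and 38 that are synonymous (48.1%). The coding cytosines of the same genes would give 5.30%, 48.2% and 46.5%. Of the 47 enzyme-only sites, 0 make a stop codon, 16 change an amino acid (34.0%, 20.9 to 49.3%) and 31 are synonymous (66.0%, 50.7 to 79.1%), beside 45.3% and 49.3% of coding cytosines. A count of 0 of 47 allows a share of stop codons of up to 6.38%, taken as 3 counts, or 7.55% as the exact upper limit, so the absence of a stop codon was within counting error of the 5.40% of coding cytosines that would give one. The intervals of the synonymous shares of the libraries overlap.

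The stop codons were Q340* and R191* in HMGCS1, each in 1 of 108 reads, and Q51* in IDI1, in 2 of 636 reads (0.314%). The IDI1 change, the only 1 on more than 1 read, turns CAG into UAG in exon 2 and is shown with the edited C in capitals (hg38, minus strand).
IDI1 stop site, chr10:1044147-1044175: ttagtgttctagaaCagatcagacatttt
Every listed coding site of FDPS was synonymous, V252V, L298L and D386D in the enzyme-only library and Y281Y in both.

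The 16 sites in both libraries made up 9.52% of the RBFOX2 and 13.3% of the enzyme-only sites of these enzymes, beside 10.3% and 12.1% over all genes. DHCR7 had 6, IDI1 4, SC5D 3, HMGCS1 2 and FDPS 1. In 12 of the 16 the number of converted reads was equal, in 2 it was higher in the RBFOX2 library and in 2 lower. The highest was the synonymous L124L of IDI1, printed at the start, with 8 of 636 reads (1.26%, 0.545 to 2.46%) against 4 of 602 (0.664%, 0.181 to 1.69%). The FDPS site Y281Y had 3 converted reads in each library. The shared site of DHCR7 with the most reads, 730 nt after the stop codon, had 3 and 2. Shared sites were thus edited at low levels, between 0.231% and 1.26% of the reads of the gene.

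The isoform models allowed the edited share of cytosines to be given per isoform. These shares are not scaled by the sites of each library, 109357 RBFOX2 and 91111 enzyme-only, so they lean towards the RBFOX2 library. No share over all isoforms of the data is given beside the counts below. A site was counted in every isoform whose exons hold it, so isoforms of a gene share sites and are not replicates, and the tables do not say which isoform a converted read came from. All 16 HMGCS1 isoforms had a higher edited share in the RBFOX2 library, and the medians were 5.15% and 1.54% of cytosines. Those that end at about 43290754 and lack the distal 3′UTR kept the gap, as the longest of them had 20 sites against 5 and the longest had 28 against 9. All 12 SQLE isoforms were higher in the RBFOX2 library, with medians of 3.33% and 0.937%.

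In SC5D, 9 of 10 isoforms were higher in the RBFOX2 library, with medians of 9.16% and 4.76%. The exception ends at 121305710, within the gene, and so holds exon 2 and not the last exon (1.99% against 2.33%). In IDI1, 14 of 18 were higher in the RBFOX2 library (7.04% and 5.99%) and in DHCR7 15 of 21, with 5 lower (6.23% and 5.44%). Scaled by library sites, the log2 ratios of IDI1 and DHCR7 were only 0.13 and 0.04. All 7 LSS isoforms and the 60 of 67 FDPS isoforms that held a site were lower in the RBFOX2 library, on the 5 sites and 3 sites of those genes. Over the 8 enzymes, 66 isoforms were higher and 77 lower in the RBFOX2 library, a split that the many FDPS isoforms set.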

How the data were processed

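HEK293T cells gave 1 RBFOX2 and 1 enzyme-only library, sequenced on a PacBio instrument after Iso-seq preparation per the labels. The deposited tables, from the authors, list for each C-to-U position the converted read count, the read count of the gene and the edit fraction, which is converted reads over gene reads, above 0.002; another file holds isoform models on hg38. The aligner, site caller and filters of these tables are not given in the sources used here, and the methods describe a newer kit, so they may belong to another run. Reads that fit a paralog or pseudogene, as FDPS has, may be misplaced. A confidence score that the authors deposited beside each position was not used, and no value column was left unmapped.

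Positions listed for more than 1 locus were counted once. Loci were joined to GENCODE 44, and bases were read from hg38; all 225811 listed rows lie on a C. The sites of a gene were compared as log2 ratios with Python 3.11.15, scipy 1.17.1 and pandas 2.3.3, checked on simulated data. No test was run, with 1 library a group. The enzymes, gene lists and rules were chosen with earlier results of these data known. Some genes of these lists are not reported here. Named were the 8 enzymes, other listed pathway genes beyond 2-fold, and, per enzyme, the sites with the most converted reads, RBFOX2 sites with at least 5, stop-gain sites with at least 2 and sites within 50 nt of UGCAUG.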

Additional observations from a re-analysis of the deposited data

How the results depend on the processing

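Of 79 recomputed values 69 stayed within the main interval or within 1.5 times the main count, 10 moved and 0 reversed. Of 36 recomputed log2 ratios of the 4 enzymes, 34 stayed on their side of 2-fold, but several of these values could hardly change. A lower minimum of sites leaves the ratio of a gene as it was. A common read minimum and the limit to isoform exons changed no site count of the 4 enzymes, only the library totals. With at least 10 sites per gene 2 enzymes were beyond 2-fold (HMGCS1 and SQLE; all genes 36.6%), and with at least 2 converted reads 0, since 1 enzyme still had 20 sites (all genes 40.3%, 71 higher and 35 lower of 263). The share with A or U 5′ of the C was then 95.6% and 86.2%, with overlapping intervals, and the share near UGCAUG 0% in both libraries. Most of those sites were in IDI1. A window of 20 nt gave 1.32% of RBFOX2 and 0% of enzyme-only sites near UGCAUG, and a window of 200 nt gave 8.55% and 2.88%. With at least 2 converted reads HMGCS1 was at 0.72 on 1 site against 0, and DHCR7 at 1.46 on 2 against 0. Both are far below the 20 sites asked for, and the pseudocount sets both values, so neither shows a shift. Sites within 50 nt counted once, an alternative chosen after seeing the data, left 10.4% of 2133 genes beyond 2-fold, 103 higher and 118 lower; of the other pathway genes 1 of 11 tested was then beyond 2-fold (SCAP, −1.16, within 2-fold otherwise), against 8 of 17. Of those 8, MVK, SREBF1, NSDHL, LBR, NPC2 and PMVK then had fewer than 20 sites and could not be called. The other pathway genes gave 4 higher and 4 lower by library totals, 4 and 2 by gene reads and 5 and 2 without scaling. Without scaling 859 genes were higher and 358 lower, and scaled by gene reads 715 and 423, against 605 and 526 by library totals; the median log2 ratio of all genes was then 0.35 and 0.18, against 0.08. The limits are 1 library per group, mostly 1 converted read per site, and depth given only as reads of the whole gene. No paired analysis was possible because each group has 1 library and the labels number them differently.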

Other observations

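Fatty acid synthesis, the neighbouring SREBP-driven route, gave few sites. Of 8 genes 6 were listed, ACACA and SCD had a locus with no listed position, and 2 had at least 20 sites. ACLY, which makes the cytosolic acetyl-CoA for both routes, had 21 sites against 18 and a log2 ratio of −0.05 (−1.02 to 0.95), and FADS1, a fatty acid desaturase, 17 against 28 and −0.97 (−1.94 to −0.06). Neither passed 2-fold, though FADS1 was at −1.05 with a common read minimum. FASN, the fatty acid synthase, had 1140 and 1052 reads and 1 site in each library, so like FDPS it was among the deep genes with few sites.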
